A study of Homo sapiens with 6 samples.

Results

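The S100 calcium-binding proteins were examined in HCT116 cells, an established human colorectal carcinoma line, with and without knockdown (KD) of the long noncoding RNA GMDS-AS1. The 10 genes described, S100A2, S100A3, S100A4, S100A6, S100A10, S100A11, S100A13, S100A14, S100A16 and S100P, were taken by symbol as S100 genes expressed in colorectal epithelium. They are 10 of the 21 S100 genes and of the 60662 genes with a value. Both groups carried a lentiviral pLKO.1 hairpin vector in otherwise wild-type cells. The 3 shCtrl libraries came from cells with a nontarget hairpin, and the 3 GMDS-AS1 KD libraries came from cells with the hairpin named shRNA2. A second GMDS-AS1 hairpin was not analysed here, so effects of the lncRNA and of this 1 hairpin sequence cannot be told apart. Levels were given in TPM, a unit that corrects for transcript length and library size, and sequencing depth is unknown because TPM retains no read numbers.

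S100 proteins are small, mostly dimeric proteins with a pair of EF-hands, the helix-loop-helix motif that binds calcium. On binding calcium most of them open a hydrophobic face that docks to target proteins, among them annexins, cytoskeletal motors, ubiquitin ligase adapters and p53, and several are also secreted and act on the receptor AGER (RAGE). S100A10 is the exception, since its EF-hands have lost calcium binding and hold it in the active shape. In colorectal carcinoma the family is known above all for S100A4, which is tied to motility and metastasis.

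Of the 10 genes, 9 lie in the S100 cluster of chromosome 1, which the GENCODE v29 annotation of GRCh38 places at chr1:151982915-153632039 from S100A10 to S100A1. S100P lies apart at chr4:6693069-6697170, on the plus strand. All 9 members on chromosome 1 are read from the minus strand. S100A3, at chr1:153547329-153549372, lies inside the span of S100A4, at chr1:153543613-153550136, but shares 0 exonic bases with it. S100A16 (chr1:153606886-153613145) and S100A14 (chr1:153614255-153616986) are separated by 1109 bases, and S100A14 and S100A13 (chr1:153618787-153631360) by 1800 bases. The cluster also holds 75 annotated genes outside the 21 S100 genes, S100A15A and S100A7P1 among them, of which 49 were at 0 TPM in all 6 libraries and 4 passed the filter on low values.

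The upstream windows of 2 pairs of neighbours are shown, chosen after their levels were seen to move apart in KD cells. Other pairs of neighbours, S100A14 and S100A13 among them, moved apart too. Each window shown holds the 250 bases before a RefSeq start on the minus strand of GRCh38.p14, 5′ to 3′, with motif matches in capitals.
S100A3, chr1:153549259-153549508: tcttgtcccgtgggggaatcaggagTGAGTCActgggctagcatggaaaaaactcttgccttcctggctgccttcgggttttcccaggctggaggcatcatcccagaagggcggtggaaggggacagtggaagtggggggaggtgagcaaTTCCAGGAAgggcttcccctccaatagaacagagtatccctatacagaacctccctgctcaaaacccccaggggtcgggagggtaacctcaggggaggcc
S100A4, chr1:153545807-153546056: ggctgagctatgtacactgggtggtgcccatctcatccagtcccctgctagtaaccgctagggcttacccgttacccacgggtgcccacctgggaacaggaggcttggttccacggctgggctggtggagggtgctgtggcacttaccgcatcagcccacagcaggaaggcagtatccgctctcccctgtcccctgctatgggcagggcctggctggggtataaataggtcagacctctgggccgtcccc
S100A14, chr1:153616326-153616575: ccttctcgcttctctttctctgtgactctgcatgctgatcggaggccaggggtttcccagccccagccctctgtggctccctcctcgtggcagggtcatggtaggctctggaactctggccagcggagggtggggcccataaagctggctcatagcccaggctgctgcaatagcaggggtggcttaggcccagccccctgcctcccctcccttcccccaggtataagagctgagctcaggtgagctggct
S100A16, chr1:153613138-153613387: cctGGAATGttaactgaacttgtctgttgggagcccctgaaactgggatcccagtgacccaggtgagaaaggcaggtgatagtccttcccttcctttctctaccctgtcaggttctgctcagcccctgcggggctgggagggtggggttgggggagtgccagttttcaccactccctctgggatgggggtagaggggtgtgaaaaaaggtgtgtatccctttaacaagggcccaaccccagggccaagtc
Both the S100A3 and the S100A4 window lie within the annotated span of S100A4.

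RefSeq start windows were found for all 10 members, 14 windows in all, and each was searched on both strands from 250 bases before the start to 50 after it. The STAT motif TTCNNNGAA was present in 1 of the 14 windows, that of S100A3, and in 7.66% of the 35116 windows of all genes. An AP-1 motif, TGANTCA, was present in 2 windows, of S100A2 and S100A3, against 7.71% of all windows. The TEAD motif GGAATG was found in both windows of S100A16 and in 14% of all windows, and the ATF4 motif TGATGNAA in the window of S100P and in 3.62% of all windows. The windows of S100A4 and S100A14 held none of the 4 motifs. GC content was 58.4% in the printed window of S100A3, 62.8% in that of S100A4, 63.2% in that of S100A14 and 57.2% in that of S100A16, against a median of 58.0% over all windows. Such matches describe the letters only.

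Before the comparison, the libraries were checked as a whole. GMDS-AS1, listed under the symbol GMDS-DT, had levels of 1.66, 2.21 and 1.34 TPM with shCtrl and of 0.88, 0.91 and 0.79 TPM with shRNA2. The knockdown came to a log2 fold change of -0.41 (SE 0.137, adjusted p = 0.0407, limma), and leaving out 1 library gave adjusted p of 0.0289, without the third shCtrl library, to 0.117, so that it passed only in that case. The epithelial markers EPCAM (141 to 165 TPM), CDH1 (23.8 to 33.9 TPM) and the keratins KRT8, KRT18 and KRT19 were present, as was the intestinal transcription factor CDX2 (5.33 to 10.45 TPM), while VIL1, LGALS4 and CDX1, markers of differentiated intestinal epithelium, reached at most 0.54 TPM. KRT8 and KRT18 were lower in KD cells, at mean levels of 1358 against 4426 TPM and 701.9 against 2972 TPM. Summed leukocyte markers were at 0.78 to 2.87 TPM, endothelial markers at 0.2 to 1.13 TPM and fibroblast markers at 10.22 to 14.96 TPM, nearly all of it COL1A1. PTPRC, which defines leukocytes, was at 0 in all 6 libraries.

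Values were scaled between libraries by a trimmed mean of log ratios and compared as log2(TPM + 1) with limma over the 16901 genes that reached 0.5 TPM in at least 3 libraries, with Benjamini-Hochberg adjustment. On this scale the fold change of genes with low TPM is understated. The scaling raised KD values against shCtrl values on average, since the log2 scaling factors of the KD libraries differed by -0.25 from those of the shCtrl libraries, and the median log2 fold change of all tested genes was -0.002 with it and -0.20 for TPM as deposited. A fold change below is therefore relative to the typical gene, and TPM levels are given as deposited. The p-values measure the spread between 3 libraries a group that the labels call biological replicates, without saying whether these were separate cultures. In bulk RNA, fewer cells with a transcript and less of it per cell cannot be told apart.

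In KD cells, S100A4 and S100A14 were each about 0.62 higher on the log2 scale, S100A6 was 0.30 higher, and S100A3 was lower by a log2 change of -1.01. All 10 members passed the filter on low values. At an adjusted p under 0.05, 4 were higher (S100A4, S100A6, S100A13 and S100A14), 2 were lower (S100A3 and S100A10) and 4 passed in neither direction (S100A2, S100A11, S100A16 and S100P). Of all tested genes, 28.5% were called higher and 25.9% lower, so calls at this threshold were common in these libraries. With a fold of at least 2 also required, 0 members were higher, against 2.93% of tested genes, and 1 was lower, S100A3, against 4.24%. The scaled levels of 6 of the 10 members did not overlap between the groups, which was also so for 62.0% of tested genes. The members' median log2 fold change was 0.07, against -0.002 over all tested genes. The directions of S100A11, S100A13 and S100A16 depended on the scaling. For TPM as deposited 3 members were called higher and 4 lower, against 2756 higher and 6814 lower of the 16901 tested genes.

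**Figure D1:**
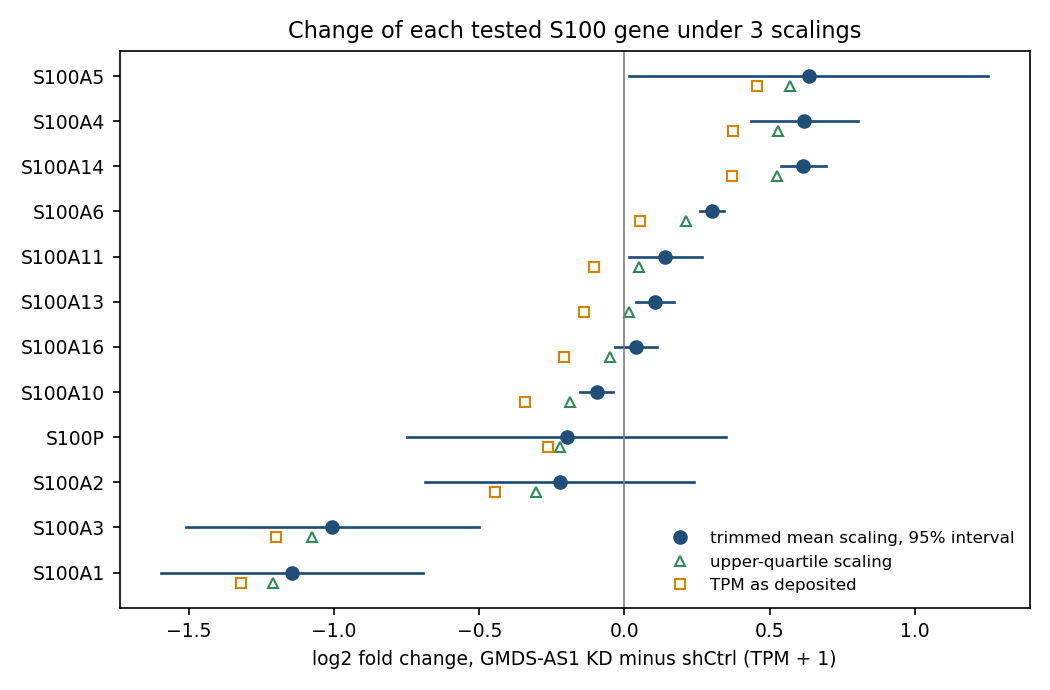
Log2 fold change of the 12 tested S100 genes, GMDS-AS1 KD minus shCtrl, on the log2(TPM + 1) scale. Filled circles and bars give the fit with trimmed mean scaling and its 95% confidence interval, and the open triangles and squares give the same change after upper-quartile scaling and for TPM as deposited. S100A4, S100A14 and S100A6 lie to the right of 0 under all 3 scalings and S100A3 and S100A1 to the left, while S100A11, S100A13 and S100A16 change sides.

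The order of levels ran from S100A6 through S100A10, S100A11, S100A14, S100A16, S100A13, S100A4, S100A2 and S100A3 to S100P when all 6 libraries were averaged. In shCtrl libraries the levels of S100A14 and S100A16, and of S100A16 and S100A13, overlapped, and in KD libraries those of S100A10 and S100A11, and of S100A16 and S100A13. The other neighbours in this order were apart in every library. The 10 members together held 3855.0, 3840.9 and 3765.7 TPM in shCtrl cells and 3857.1, 3806.4 and 3808.8 TPM in KD cells. These sums overlapped as deposited. After scaling they were 3520.6, 3498.1 and 3499.7 in shCtrl cells and 4190.2, 4202.7 and 4107.0 in KD cells, without overlap, so whether the family total differed between the groups depended on the scaling.

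**Figure D2:**
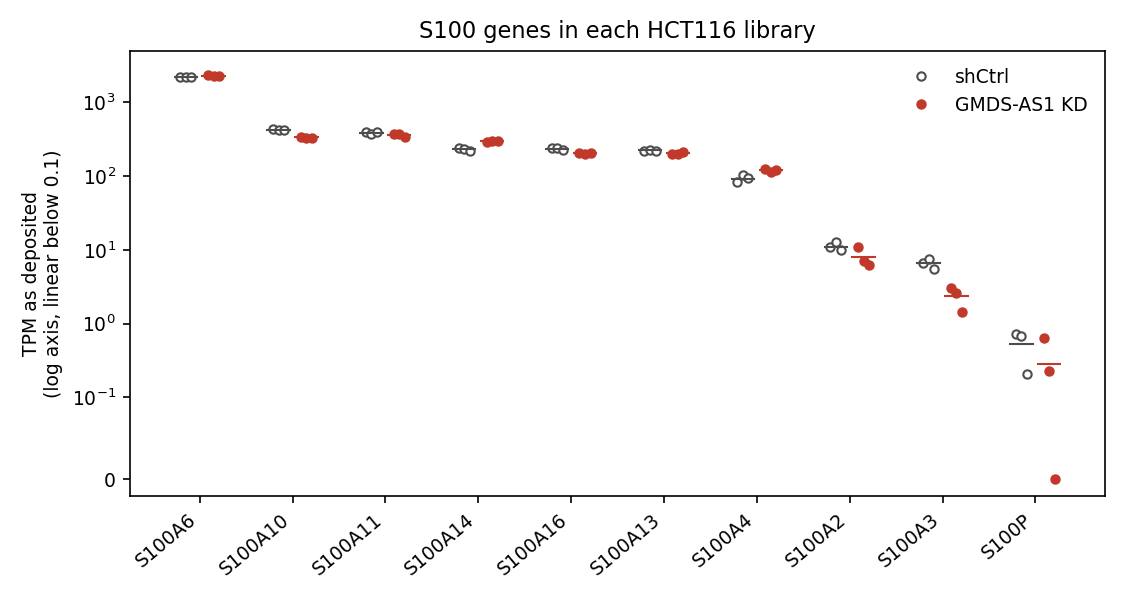
TPM as deposited of the 10 S100 genes in each library, on a log axis that is linear below 0.1, with genes in order of level. Open grey points are the 3 shCtrl libraries, red points the 3 GMDS-AS1 KD libraries and short lines the group means. S100A6 lies between 2184.39 and 2310.60 TPM, and S100P at 0.72 TPM or below.

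S100A6, or calcyclin, is abundant in proliferating epithelial cells and binds CACYBP, an adapter of the SIAH1 ubiquitin ligase. It was at 2231.04, 2223.85 and 2184.39 TPM in shCtrl cells and at 2310.60, 2279.93 and 2305.30 TPM in KD cells. All KD values were above all shCtrl values, by a small margin. The means were 2213 ± 25.1 and 2299 ± 16.4 TPM (SD, n = 3), and the scaled log2 fold change was 0.30 (95% interval 0.26 to 0.34, adjusted p = 1.4e-05, limma). For TPM as deposited the change was 0.05 (adjusted p = 0.043). S100A6 made up 57.9% ± 0.0712 of the summed TPM of the 10 members in shCtrl cells and 60.1% ± 0.36 in KD cells, and ranked 81 to 84 among the tested genes in both groups.

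S100A10, also called p11, forms a heterotetramer with annexin A2 at the plasma membrane, where the complex binds plasminogen and the scaffold AHNAK. It was at 429.29, 425.08 and 415.92 TPM in shCtrl cells and at 338.56, 332.85 and 329.72 TPM in KD cells. The groups were far apart as deposited, at means of 423.4 ± 6.84 and 333.7 ± 4.48 TPM (SD, n = 3). Relative to the typical gene the fall was small, with a log2 fold change of -0.10 (SE 0.0235, 95% interval -0.15 to -0.04, adjusted p = 0.0122, limma), and without the variance trend the adjusted p was 0.118. For TPM as deposited the change was -0.34, and after upper-quartile scaling -0.19. The share of S100A10 in the members' sum was 11.1% in shCtrl and 8.73% in KD libraries.

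S100A11, or calgizzarin, binds annexin A1 and takes part in membrane repair. Its levels were 391.19, 371.19 and 392.63 TPM in shCtrl cells and 370.01, 368.69 and 334.97 TPM in KD cells. The means, 385.0 ± 12.0 and 357.9 ± 19.9 TPM (SD, n = 3), gave a scaled log2 fold change of 0.14 (95% interval 0.01 to 0.27) that did not pass (adjusted p = 0.0595, limma). Without the third KD library, the lowest of the 6, the change was 0.20 (adjusted p = 0.00675), and for TPM as deposited it was -0.11. The 8 numbered pseudogenes named for S100A10 or S100A11 were at 0 in all libraries.

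S100A14, an epithelial S100 protein that binds calcium weakly, was at 238.20, 232.21 and 219.25 TPM in shCtrl cells and at 292.54, 300.23 and 298.58 TPM in KD cells. Its groups were apart both as deposited and after scaling. The means were 229.9 ± 9.69 and 297.1 ± 4.05 TPM (SD, n = 3), with a log2 fold change of 0.62 (SE 0.0324, 95% interval 0.54 to 0.69, adjusted p = 9.8e-06, limma). Leaving out 1 library gave changes of 0.57 to 0.63, and for TPM as deposited the change was 0.37.

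S100A16, the next gene of the cluster, was at 243.51, 236.81 and 223.70 TPM in shCtrl cells and at 205.19, 200.80 and 203.33 TPM in KD cells. After scaling the groups overlapped, and the log2 fold change of 0.04 (95% interval -0.03 to 0.11, adjusted p = 0.316, limma) did not pass. Its direction was not settled, since it was -0.05 after upper-quartile scaling, -0.21 for TPM as deposited (adjusted p = 0.00246) and -0.01 without the third shCtrl library.

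S100A13, a copper-binding member that helps release FGF1 and interleukin-1α without a signal peptide, was at 221.26, 229.06 and 220.55 TPM in shCtrl cells and at 199.16, 199.33 and 210.20 TPM in KD cells. It passed as higher after scaling, with a log2 fold change of 0.11 (95% interval 0.04 to 0.17, adjusted p = 0.016, limma), and as lower for TPM as deposited, at -0.14 (adjusted p = 0.00906). After upper-quartile scaling the change was 0.02 (adjusted p = 0.654), and the adjusted p was 0.0949, 0.0504 and 0.0852 without each shCtrl library in turn. Of its 2216 exonic bases, 24.2% are shared with AL162258.1 on the same strand and 10.6% with S100A1 on the opposite strand. AL162258.1 fell from a mean of 6.603 to 3.53 TPM, with a log2 fold change of -0.54 (adjusted p = 0.00168, limma). Whether the authors' counting used strand is not given in the sources used here, and reads of overlapping genes may have been split.

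S100A4, or metastasin, binds the heavy chain of nonmuscle myosin IIA, MYH9, and promotes the disassembly of its filaments. It was at 82.38, 101.88 and 93.73 TPM in shCtrl cells and at 126.37, 114.77 and 119.08 TPM in KD cells. Every KD library was above every shCtrl library, although the shCtrl libraries spread more widely. From means of 92.7 ± 9.79 and 120.1 ± 5.86 TPM (SD, n = 3), the log2 fold change was 0.62 (SE 0.0774, 95% interval 0.44 to 0.80, adjusted p = 0.000556, limma). It was 0.37 for TPM as deposited (adjusted p = 0.00577).

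S100A3, a cysteine-rich zinc-binding protein best known from the hair cuticle, was at 6.64, 7.60 and 5.50 TPM in shCtrl cells and at 3.02, 2.62 and 1.42 TPM in KD cells. The lowest shCtrl library was above the highest KD library. The means were 6.58 ± 1.05 and 2.35 ± 0.833 TPM (SD, n = 3), and the log2 fold change was -1.01 (SE 0.212, 95% interval -1.51 to -0.50, adjusted p = 0.00635, limma). It ranged from -1.16 to -0.77 when 1 library was left out, passed each time, and was -1.26 with a pseudocount of 0.1.

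S100A2, a p53 target of stratified epithelium, was at 10.82, 12.59 and 9.84 TPM in shCtrl cells and at 10.98, 6.97 and 6.21 TPM in KD cells. The first KD library lay among the shCtrl libraries and the other two lay below them. The log2 fold change was -0.22 (95% interval -0.69 to 0.24, adjusted p = 0.37, limma), and without the first KD library it was -0.44 (adjusted p = 0.0238). S100P, a ligand of AGER and activator of ezrin known from placenta and carcinomas, was barely present, at 0.72, 0.67 and 0.21 TPM in shCtrl cells and at 0.63, 0.23 and 0 TPM in KD cells. It passed the filter through 3 libraries only, 2 shCtrl and 1 KD, and its change of -0.20 (95% interval -0.75 to 0.35, adjusted p = 0.503, limma) covered changes of either sign.

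Ratios of neighbouring members within a library do not depend on the scaling, and several differed between the groups. Neighbouring here means next to each other among the members on chromosome 1. S100A11 and S100A6 are 1486691 bases apart with other S100 genes between them, and S100A5 lies between S100A6 and S100A4. S100A16 and S100A14 stood at ratios of 1.022, 1.020 and 1.020 in the shCtrl libraries, close to equal levels, and at 0.7014, 0.6688 and 0.681 in the KD libraries. The mean log2 ratio changed by -0.58, against SDs of 0.00186 and 0.0347. S100A14 over S100A13, where S100A14 is the numerator, went from 1.077, 1.014 and 0.9941 to 1.469, 1.506 and 1.42. The ratio of S100A4 to S100A3 was 12.41, 13.41 and 17.04 in shCtrl cells and 41.84, 43.81 and 83.86 in KD cells, 3.79 times as high on average, with the third KD library the highest. Of the 8 ratios of neighbouring members, 7 did not overlap between the groups, each with p = 0.1 in a two-sided exact permutation test, the smallest p that 3 against 3 allows. The exception was S100A2 over S100A16 (exact permutation p = 0.4). Successive ratios share a gene, so they are not independent. The share of such ratios over all gene pairs was not computed. Of single tested genes, 62.0% did not overlap between the groups after scaling.

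**Figure D3:**
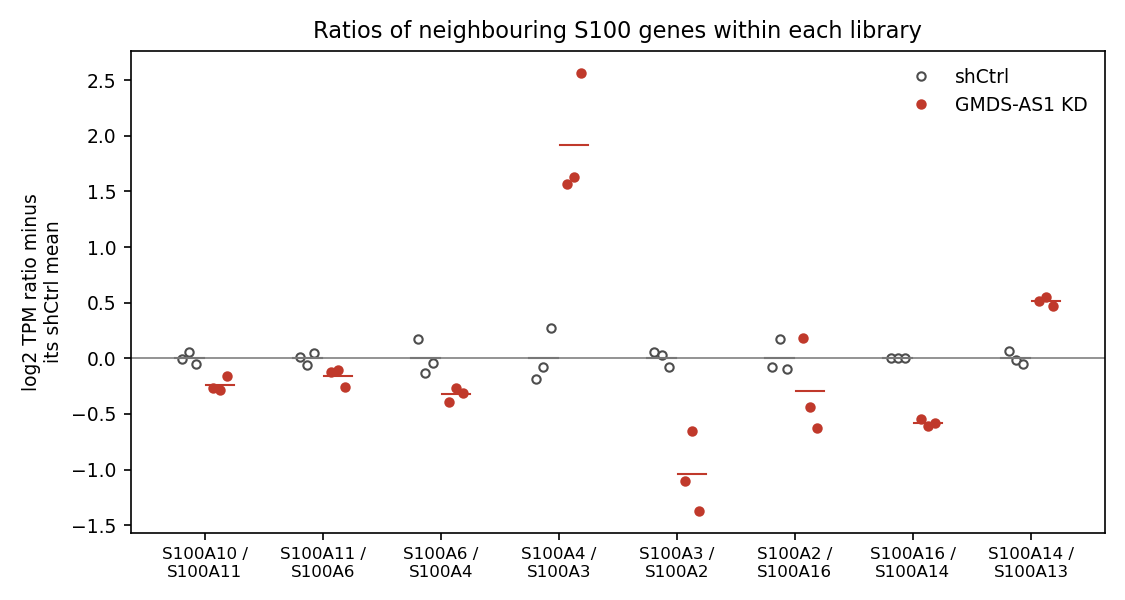
Log2 TPM ratio of each pair of members that follow each other in the chromosome 1 cluster, within each library, minus the mean of the shCtrl libraries. Open grey points are the 3 shCtrl libraries, red points the 3 GMDS-AS1 KD libraries and short lines the group means. S100A4 over S100A3 shows the widest separation, with a mean shift of 1.92, and S100A16 over S100A14 the tightest shCtrl points.

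Of the 11 other S100 genes, 7 were at 0 in all 6 libraries, among them S100A8, S100A9 and S100A12, the calgranulins of neutrophils and monocytes. S100A7 and S100B reached at most 0.28 TPM. S100A1, a regulator of calcium handling best known from heart muscle, passed as lower by more than 2-fold. It was at 3.70, 6.70 and 4.86 TPM in shCtrl cells and at 1.58, 1.10 and 1.52 TPM in KD cells, with a log2 fold change of -1.14 (SE 0.189, adjusted p = 0.00214, limma). AL162258.2, on the opposite strand, fell as well, from a mean of 3.78 to 1.067 TPM with a log2 fold change of -1.04 (adjusted p = 0.000824, limma). S100A1 shares 10.6% of its exonic bases with it. It also shares 7.76% with S100A13 and 1.12% with AL162258.1, both on the opposite strand. S100A13 was far more abundant, at means of 223.6 TPM in shCtrl and 202.9 TPM in KD cells. The part of these overlaps in the S100A1 result was not tested. S100A5, known from olfactory neurons, was at 3.26, 1.54 and 1.99 TPM and at 4.61, 2.2 and 3.67 TPM, and its change of 0.64 did not pass (adjusted p = 0.0775). Without the first shCtrl or the second KD library its adjusted p was 0.0366 and 0.0249.

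Annexins are calcium-dependent phospholipid-binding proteins, several of which pair with S100 proteins. Of 13 annexin genes 10 were tested, and 8 were higher, 1 was lower and 1 did not pass, with a median log2 fold change of 0.45 after scaling. For TPM as deposited, 6 annexins were called higher and 2 lower, against 2756 higher and 6814 lower of the 16901 tested genes. Among all tested genes, 28.5% were called higher and 25.9% lower after scaling. ANXA3 was higher at 186.0 ± 3.63 against 107.1 ± 4.01 TPM (log2 fold change 1.04, adjusted p = 1.5e-06, limma). ANXA1, the partner of S100A11, was higher at 444.9 ± 5.84 against 322.1 ± 8.06 TPM (0.71), and ANXA11 (0.78), a partner of S100A6, and ANXA10 (0.62) were higher too. ANXA6, another annexin that binds S100 proteins, was the 1 called lower, at -0.30. ANXA2, the partner of S100A10, was at 2037.69, 2068.41 and 2035.85 TPM in shCtrl cells and at 1798.06, 1770.27 and 1895.80 TPM in KD cells. Its change of 0.08 passed (adjusted p = 0.0309, limma), but it was -0.01 after upper-quartile scaling and -0.17 for TPM as deposited (adjusted p = 0.00235), and it no longer passed when any 1 shCtrl library or the third KD library was left out. The ratio of S100A10 to ANXA2, free of scaling, was 0.2107, 0.2055 and 0.2043 in shCtrl and 0.1883, 0.188 and 0.1739 in KD libraries, without overlap (exact permutation p = 0.1).

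Among 18 genes whose proteins bind S100 proteins 16 were tested, and 10 were higher, 4 were lower and 2 did not pass, with a median log2 fold change of 0.35. The shares over all tested genes were 28.5% higher and 25.9% lower. For TPM as deposited, 8 partners were called higher and 5 lower, against 2756 higher and 6814 lower of the 16901 tested genes. CACYBP, the partner of S100A6, was higher at 170.4 ± 13.7 against 96.6 ± 4.10 TPM (log2 fold change 1.06, adjusted p = 9e-06, limma). The ratio of S100A6 to CACYBP therefore went from 22.22, 22.91 and 23.68 to 13.42, 14.63 and 12.6. MYH9, the partner of S100A4, was lower at 92.35 ± 3.97 against 158.4 ± 1.83 TPM (-0.53, adjusted p = 2.9e-05), and the ratio of S100A4 to MYH9 went from 0.5253, 0.6449 and 0.5843 to 1.314, 1.301 and 1.286, 2.23 times as high. Neither ratio overlapped between the groups (exact permutation p = 0.1).

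MDM2, the ubiquitin ligase of p53 and a binding partner of several S100 proteins, was higher at 121.9 ± 5.71 against 54.06 ± 3.92 TPM, with a log2 fold change of 1.40. S100PBP, a nuclear protein that binds S100P, was lower at 10.11 ± 0.349 against 19.6 ± 1.34 TPM (-0.66), and EZR, the ezrin that S100P activates, was higher at 989.8 ± 4.05 against 904.9 ± 22.8 TPM (0.38). TRPV6, a calcium channel that the S100A10 and annexin A2 complex carries to the membrane, was at 1.70, 1.62 and 1.51 TPM in shCtrl cells and at 0.25, 0.26 and 0.33 TPM in KD cells. TRPV6 counts among the partners called lower, but it passed the filter on low values only through the shCtrl libraries. It gave no value when any shCtrl library was left out. The change of AHNAK was 0.21 (adjusted p = 0.00111, limma) and -0.04 for TPM as deposited.

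Of 32 other EF-hand proteins, all tested, 13 were higher, 12 were lower and 7 did not pass. Their median log2 fold change was 0.04. RCN3, counted as lower, passed the filter on low values only through the shCtrl libraries. For TPM as deposited the counts were 5 higher and 19 lower, against 2756 higher and 6814 lower of the 16901 tested genes. The mitochondrial proton and calcium carrier LETM1 was higher at 56.65 ± 4.30 against 34.2 ± 1.92 TPM (0.95, adjusted p = 5.9e-05, limma). MICU2, a gatekeeper of the mitochondrial calcium uniporter, was lower at 19.2 ± 2.09 against 44.85 ± 4.71 TPM (-0.94), as was NUCB2, the precursor of nesfatin-1 (-0.85). EFHD1, a mitochondrial EF-hand protein, was lower at 0.41 ± 0.151 against 2.41 ± 0.419 TPM (-1.15). The S100 members thus had 4 of 10 called higher and 2 of 10 lower, and the other EF-hand genes 13 and 12 of 32. Over all tested genes the shares were 28.5% and 25.9%. The difference between the lists was not tested.

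Among 7900 genes with a mean of at least 10 TPM, those with profiles most like that of S100A4 over the 6 libraries were GTF2E2, C14orf119 and PRR7, at root mean square differences of 0.0299, 0.03 and 0.0327 on the log2 scale. For S100A3 they were C1QTNF6, GPX8 and WEE1, at 0.149, 0.153 and 0.157. S100A3 itself lies below the level required of the genes searched.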

How the data were processed

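The authors extracted RNA from stably transduced HCT116 cells, prepared poly-A selected TruSeq libraries and sequenced them as paired reads. Their methods name Cufflinks and RSEM, and the submitters' processing notes name Trimmomatic 0.27, TopHat2 2.1.1 and GRCh38.p13. The annotation release and the use of strand are not given in the sources used here. The authors deposited TPM per Ensembl gene and library, for 60662 genes, and 2 genes with broken lines were left out. Totals were 991058 to 992992 TPM, and TPM keeps no depth.

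TPM were divided by trimmed mean factors (30% of log ratios and 5% of mean values trimmed at each end, without weights), and log2(TPM + 1) was fitted with limma 3.58.1 (R 4.3.3), allowing a variance trend and without a replicate block. Genes needed 0.5 TPM in 3 libraries. Calls were made at a Benjamini-Hochberg adjusted p under 0.05. Tests were two-sided, and the fit was tested on simulated data. Few genes were changed in that simulation, equally many up and down, so it does not test the scaling where many genes change. The study's DESeq2 needs counts and was not used. Positions came from GENCODE v29 and start windows from RefSeq GRCh38.p14. Calculations and figures used Python 3.11.15.

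The members and lists were chosen with earlier results of these data known. The text names all members, the tested S100 genes, set partners of members, up to 4 genes with the largest change per list among called genes without overlap, and the 3 nearest profiles for the members with the largest rise and fall. Beyond this rule, ANXA6, AL162258.1 and AL162258.2 were named, and the printed upstream windows chosen, after the values were seen. Alternatives covered scaling, pseudocount, filter, variance trend, replicate block, threshold and leaving out each library.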

Additional observations from a re-analysis of the deposited data

How the results depend on the processing

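S100A3, S100A4, S100A6, S100A14 and S100A1 kept their direction and their call at an adjusted p under 0.05 under 13 alternatives to that fit. The treat test given below is not among these 13. S100P gave a value in 9 of the 13. For TPM as deposited, 2756 genes were called higher and 6814 lower, 4 members were lower, and the log2 fold changes of S100A11 (-0.1061), S100A13 (-0.1399), S100A16 (-0.2066), ANXA2 (-0.1692) and AHNAK (-0.0384) reversed, which follows from the lower KD scaling factors. After upper-quartile scaling, S100A16 (-0.0503) and ANXA2 (-0.0122) reversed. Without the variance trend 1 member was lower. In limma's treat test against a fold of 2, the stricter threshold, 0 members were higher and 0 lower, and 142 of all genes were higher and 170 lower. Leaving out 1 library gave 3 to 5 members higher and 2 to 3 lower, 4163 to 4424 of all genes higher and 3658 to 3978 lower, and S100A16 at -0.0059 without shCtrl replicate 3 to 0.0521 without GMDS-AS1 KD replicate 3. The cause was not tested. Annexin calls were 2 lower for TPM as deposited.

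The replicate numbers did not pair the samples: same-numbered libraries deviated with correlations of 0.029, -0.0376 and 0.0142, and not every library correlated best with its own number. With the replicate number as a block, 4 members were higher and 2 lower, as without it. In that fit S100A5 passed (adjusted p = 0.00935), and ANXA2 (0.0542) and GMDS-DT (0.0518) did not. The other EF-hand genes called higher went from 13 to 11. No other S100 gene changed its call.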

Other observations

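S100P lies apart from the cluster, on chromosome 4. Of 35 annotated genes within 1 Mb, 14 were tested, and 5 were higher, 4 were lower and 5 did not pass, against 28.5% higher and 25.9% lower among all tested genes. BLOC1S4, a subunit of a lysosome-related organelle complex, was lower at 6.413 ± 0.372 against 12.98 ± 0.891 TPM (SD, n = 3), with a log2 fold change of -0.69 (adjusted p = 0.000278, limma). KIAA0232 (-0.66) and WFS1, the endoplasmic reticulum protein wolframin (-0.45), were lower as well, and GRPEL1, a mitochondrial import co-chaperone, was higher at 57.82 ± 2.06 against 47.52 ± 3.03 TPM (0.52). In the chromosome 1 cluster, 0 of the 4 tested genes outside the S100 genes were higher and 2 were lower. These 2 were AL162258.1 and AL162258.2, which both share exonic bases with S100A1, and AL162258.1 also with S100A13.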
